A study of Bos taurus with 6 samples.

Results

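The genes described here encode the subunits and assembly factors of the proteasome, measured in the loin muscle longissimus dorsi of cattle of the Chinese Red Steppe breed. They were chosen by name: every gene whose single symbol in the array annotation begins with PSM, followed by a letter from A to G and a digit, was taken, except PSMB8, PSMB9 and PSMB10, if a probe set had a present call on 3 or more of the 6 arrays. The rule found 37 of the 6423 named genes tested, and each is represented by its brightest probe set. Of these 37 genes, 23 belong to the regulatory caps or help to assemble or restrain the particle and 13 form the catalytic core. PSME3IP1, which encodes a protein that binds an activator of the proteasome, met the naming rule without being a subunit and is kept apart in the counts of regulatory and core genes.

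The bulls were 24 months old or 1 month old, 9 of each age, all male and of the same breed, kept on a standard diet. Muscle was frozen at slaughter, total RNA of 3 bulls was mixed into each pool, and each pool was hybridised to 1 bovine Affymetrix array, which gives n = 3 pools for each age. The labels number them 2, 3 and 4 at 24 months and 1, 2 and 3 at 1 month. Differences between individual bulls inside a pool cannot be seen in these data.

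The proteasome is the barrel-shaped protease that degrades proteins tagged with ubiquitin. Its 20S core is built of stacked rings of alpha and beta subunits, with the active sites inside the beta rings. The 19S cap recognises tagged proteins, removes the ubiquitin, and uses a ring of ATPases to unfold the protein and thread it into the core. In muscle this route is the main path by which contractile proteins are broken down, and its genes are known to rise during wasting.

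By limma 5 of 13 tested genes of the 19S cap rose and 0 fell in the older bulls. Of the 13 tested genes of the 20S core 0 rose and 0 fell. Changes are given on the scale of log2(intensity + 16) as 24 months minus 1 month, ± the standard error of a limma fit over all 13204 tested probe sets, and a gene is said to rise or fall only at an adjusted p under 0.05. Among the 37 genes 8 rose and 1 fell, which is 24.3%, against 19% of all tested probe sets in either direction, 14% as rises and 4.99% as falls. The share for all 37 genes is near that background. Of the 23 regulatory genes 7 rose and 1 fell (34.8%), and of the 13 core genes 0 rose and 0 fell by limma, with 2 core genes at an unadjusted p under 0.05. The median change was 0.32 for the regulatory genes and 0.021 for the core genes, beside 0.064 for all tested probe sets. These backgrounds count every probe set, while each member has 1. On their brightest probe sets, the 6423 named genes had a median of 0.026. Of those genes 724 rose and 371 fell (17.0%). The actin signal ratio (log2, 3' over 5' probes), a measure of RNA integrity and labelling length, averaged 0.24 ± 0.022 at 24 months and 0.66 ± 0.20 at 1 month (SD, n = 3 pools each). It ran from 0.22 to 0.26 at 24 months and from 0.46 to 0.85 at 1 month. The ages did not overlap, so age and this ratio cannot be fully told apart. All results with the ratio as a covariate carry that limit. With this ratio as a covariate these medians were 0.049 for the regulatory genes and -0.20 for the core genes. The median of all tested probe sets was then 0.14. In that fit 0 of the 13 cap genes passed by limma. Of all 13204 tested probe sets, 996 passed in that fit, against 2513 in the main fit. No test of the difference between the lists was made. All 43 probe sets of these genes were called present on all 6 arrays, so the filter on dim probe sets removed none of them. Each of the 9 calls was lost when any 24-month array was left out.

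**Figure D1:**
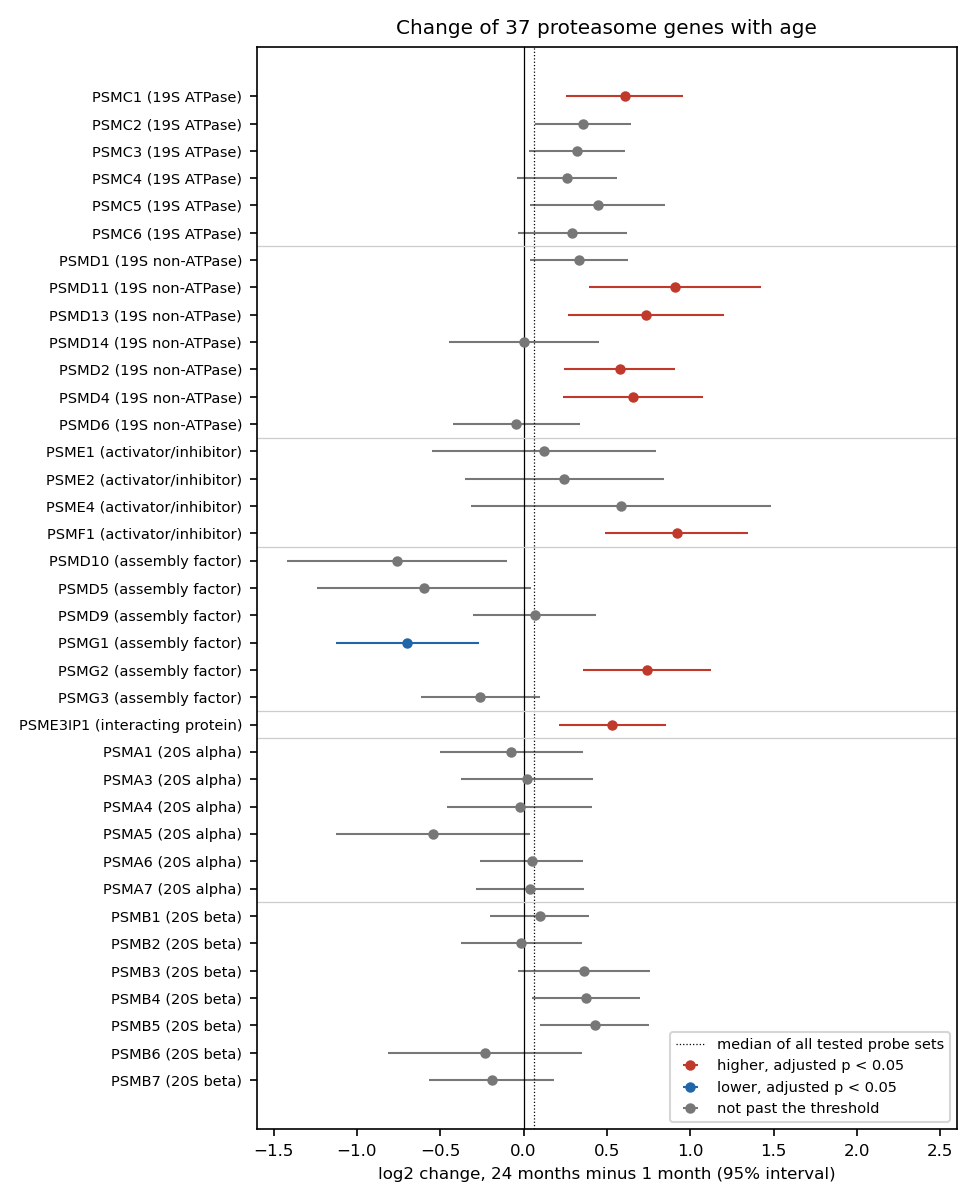
Log2 change (24 months minus 1 month) of each of the 37 genes, with its 95% interval from the limma fit, n = 3 pools per age. The points of all 6 ATPase genes of the 19S cap lie right of 0, while the intervals of PSMC4 and PSMC6 cross it. The core genes at the bottom scatter on both sides of the dotted median of all tested probe sets (0.064).

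The ATPase ring of the 19S cap is made by PSMC1 to PSMC6. All 6 genes were higher in each 24-month pool than in any 1-month pool, and the genes' changes lay between 0.26 and 0.61. A complete separation of the ages in this direction was seen for 27.2% of all tested probe sets. It was seen for 1530 of the 6423 named genes on their brightest probe sets. PSMC1, the ATPase known for opening the gate of the core, was the ring member that passed the test. Its intensity was 847, 946 and 893 in the 24-month pools, against 511, 562 and 688 in the 1-month pools. It rose by 0.61 ± 0.15 (1.52-fold, adjusted p = 0.0334). The other ring members did not pass. PSMC5 had 931, 939 and 787 in the 24-month pools and 518, 730 and 708 in the 1-month pools, a change of 0.44 ± 0.17 (adjusted p = 0.114). PSMC2 had 2270.3, 1957 and 2075 in the 24-month pools and 1586, 1609 and 1704 in the 1-month pools (0.36 ± 0.12, adjusted p = 0.0823). PSMC3, PSMC4 and PSMC6 gave 0.32 ± 0.12, 0.26 ± 0.13 and 0.29 ± 0.14 (adjusted p = 0.108, 0.184 and 0.176). Dimmer probe sets were tested for a few of these genes: PSMC2 gave -0.025 ± 0.12, PSMC5 0.26 ± 0.16 and PSMC6 0.073 ± 0.20 on theirs, and in all of these the ages overlapped. The separation of PSMC2, PSMC5 and PSMC6 therefore held on 1 of their 2 probe sets each. The authors also deposited a second table of the same arrays. In its values as deposited the ages overlapped for PSMC2, PSMC3, PSMC4 and PSMC6. There 4 of the 6 ring changes were positive, with and without quantile normalization.

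The non-ATPase subunits of the 19S cap included 4 of the 5 rises of the cap, among 7 tested genes with a median change of 0.58. PSMD11, a lid subunit that braces the cap against the core, changed most among them. Its 24-month pools read 1765, 1800.4 and 1666, against 724, 832 and 1293 in the 1-month pools. The change was 0.91 ± 0.22 (1.88-fold, adjusted p = 0.0319), and 1-month replicate 3 lay well above the other young pools while staying below all older pools.

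PSMD2, the base scaffold on which ubiquitin carriers dock, read 751, 843 and 832 in the 24-month pools, against 618, 479 and 521 in the 1-month pools. It rose by 0.58 ± 0.14 (adjusted p = 0.0334). PSMD4, a receptor for ubiquitin chains, read 1017, 1162 and 1106 in the 24-month pools and 546, 711 and 836 in the 1-month pools, a rise of 0.66 ± 0.18 (adjusted p = 0.0434). These pools did not overlap in the main table, and a dimmer PSMD4 probe set gave 0.52 ± 0.20 without passing (adjusted p = 0.117). In the second table as deposited the ages overlapped for PSMD4. After quantile normalization its change there was 0.39 ± 0.24 (adjusted p = 0.319). The lid subunit PSMD13 read 249, 330 and 265 in the 24-month pools, against 123, 172 and 198 in the 1-month pools. It rose by 0.73 ± 0.20 (adjusted p = 0.0436).

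The remaining 19S subunits did not pass. PSMD1, the other large scaffold of the base, had 1183, 1022 and 1190.3 in the 24-month pools and 918, 847 and 916 in the 1-month pools (0.33 ± 0.13, adjusted p = 0.107). PSMD14, the deubiquitinase of the lid, had the smallest change of all 37 genes. Its 24-month pools read 979, 962 and 1159 and its 1-month pools 862, 1332 and 946, so the ages overlapped (0.0018 ± 0.19, 95% interval -0.45 to 0.45). The lid subunit PSMD6 gave -0.044 ± 0.16 on its brightest probe set and 0.70 ± 0.25 on a dimmer one (adjusted p = 0.0919). Over the whole cap 5 of 13 genes rose and 0 fell by limma (38.5%, against 19% of all tested probe sets in either direction and 14% as rises), and 11 of 13 had all 24-month pools above all 1-month pools (27.2% of all tested probe sets did).

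**Figure D2:**
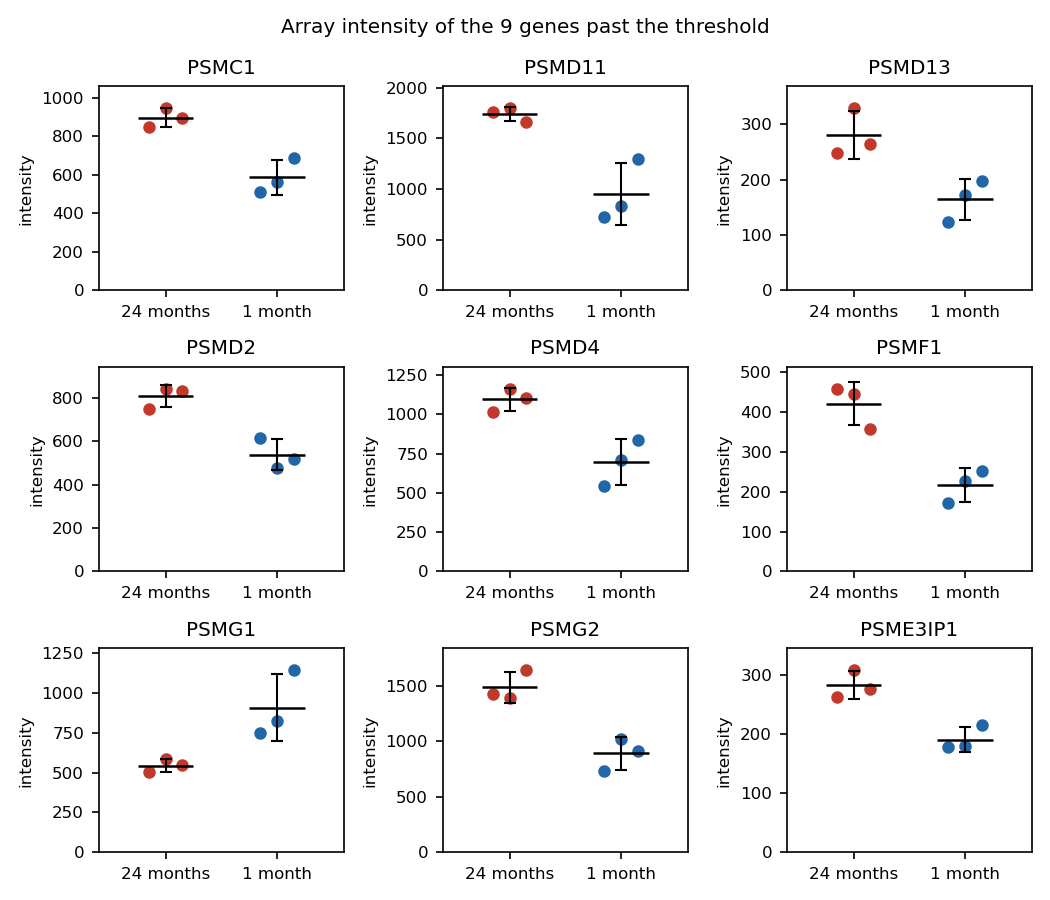
Linear intensity of the 9 genes past the threshold, with a point for each pool (24 months left, 1 month right), the mean as a horizontal line and the SD as an error bar (n = 3 pools per age). The ages do not overlap in any of the 9 genes, and PSMG1 alone is lower at 24 months.

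Among the 4 genes for activators and inhibitors of the core, 1 rose. This was PSMF1, which encodes a protein known as an inhibitor of the isolated core. Its intensity was 458, 445 and 358 in the 24-month pools, against 170.3, 227 and 252 in the 1-month pools. The change of 0.92 ± 0.18 (1.89-fold, adjusted p = 0.018) had the smallest p of all 37 genes. The paired activator genes PSME1 and PSME2, whose products cap the core without ATP, overlapped between the ages and gave 0.12 ± 0.28 and 0.24 ± 0.25. With the actin ratio as a covariate they gave 1.35 ± 0.27 (adjusted p = 0.0384) and 1.16 ± 0.36, and PSME1 was then the one rise among the 37 genes. PSME1 read 762, 834 and 798 in the 24-month pools, inside the range of the 1-month pools, which read 1133, 701 and 489. The actin ratios of those 1-month pools ran in the same order, at 0.85, 0.69 and 0.46. PSME4, a large activator that works without ubiquitin, read 760.4, 506 and 645 in the 24-month pools and 345, 264 and 775 in the 1-month pools (0.58 ± 0.38, adjusted p = 0.312). Here 1-month replicate 3 was the highest of all pools. PSME3IP1 read 262, 309 and 277 in the 24-month pools and 178, 179.6 and 215 in the 1-month pools, and it rose by 0.53 ± 0.14 (adjusted p = 0.0377).

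The assembly factors moved apart. PSMG1 and PSMG2 encode the partners of one heterodimer that helps to build the alpha ring, and PSMG1 fell while PSMG2 rose. PSMG1 read 501, 583 and 548 in the 24-month pools, against 749.9, 824 and 1143 in the 1-month pools (-0.70 ± 0.18, adjusted p = 0.0395). PSMG2 read 1429, 1391 and 1645 in the 24-month pools, against 733, 1024 and 918 in the 1-month pools (0.74 ± 0.16, adjusted p = 0.0244). In the second deposited table, after quantile normalization, PSMG1 kept its direction at -0.82 ± 0.24 (adjusted p = 0.0628). There PSMG2 turned to -0.91 ± 0.25 (adjusted p = 0.0521). The opposite movement of the pair was thus seen in the main table alone.

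PSMD10 and PSMD5, chaperones that escort the ATPases during assembly of the cap, had lower means at 24 months without passing. PSMD10 read 159, 189 and 179.6 in the 24-month pools and 191, 352 and 429.8 in the 1-month pools (-0.76 ± 0.28, adjusted p = 0.1). PSMD5 read 285, 263 and 253 in the 24-month pools and 343, 311 and 652 in the 1-month pools (-0.60 ± 0.27, adjusted p = 0.163). Of the 6 assembly genes tested, 4 had every 24-month pool below every 1-month pool. That separation was found for 16.1% of all tested probe sets and for 1161 of the 6423 named genes on their brightest probe sets. The median change of the 6 assembly genes was -0.43. Of the fits with 1 array left out PSMD10 passed in 1, as a fall without 1-month replicate 1, its lowest young pool (-1.08, adjusted p = 0.0101). It also passed as a fall with the actin covariate (-1.92, adjusted p = 0.0265).

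In the 20S core no alpha subunit passed, and most changed little. The genes PSMA1, PSMA3, PSMA4, PSMA6 and PSMA7 lay between -0.074 and 0.049, and in all 6 alpha genes the ages overlapped. PSMA5 stood lowest. Its intensity was 990, 962 and 1163 in the 24-month pools, against 1094, 1479 and 2148 in the 1-month pools, and the change of -0.54 ± 0.25 did not pass (adjusted p = 0.162). Of the fits with 1 array left out PSMA5 passed in 1, without 1-month replicate 1, its lowest young pool (-0.78, adjusted p = 0.0405). With the actin covariate it gave -1.55 and passed (adjusted p = 0.0314).

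Of the 7 tested beta genes 4 had positive and 3 had negative changes, and none passed. PSMB5, which carries the chymotrypsin-like active site, read 1620.0, 1804 and 1532 in the 24-month pools, against 1136, 1379.95 and 1164 in the 1-month pools. The change of 0.43 ± 0.14 had the smallest p of the core and did not pass (adjusted p = 0.0732). PSMB4 read 2428, 2484 and 2502 in the 24-month pools and 1725, 2201 and 1814 in the 1-month pools (0.37 ± 0.14, adjusted p = 0.0983). Of the fits with 1 array left out it passed in 1, without 1-month replicate 2, its highest young pool (adjusted p = 0.046). PSMB3 read 1185, 1200.5 and 1182 in the 24-month pools and 730.2, 1073 and 998 in the 1-month pools (0.36 ± 0.17, adjusted p = 0.17). These are the 3 core genes whose ages did not overlap (23.1% of the core, against 27.2% of all tested probe sets in this direction). Of the 6423 named genes, 1530 did so on their brightest probe sets. PSMB6 and PSMB7, which carry the other two active sites, gave -0.23 ± 0.25 and -0.19 ± 0.16, and PSMB1 and PSMB2 gave 0.097 ± 0.13 and -0.013 ± 0.15. None of the 3 catalytic genes passed, and their changes were not tested against each other.

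Levels of the regulatory and core genes can also be read array by array. The mean log2(intensity + 16) of the 23 regulatory genes was 9.46, 9.48 and 9.47 in the 24-month pools, against 9.08, 9.23 and 9.36 in the 1-month pools. For the 13 core genes the means were 10.49, 10.46 and 10.51 in the 24-month pools, against 10.25, 10.59 and 10.55 in the 1-month pools. The regulatory means of the ages did not overlap, while the 24-month core means lay within the range of the 1-month ones. The core mean was lowest in 1-month replicate 1, which was the lowest of the young pools for 11 of the 13 core genes, and without it the median core change was -0.096. The actin signal ratio was highest, at 0.85, in the same pool. With this ratio as a covariate PSMG1 kept its call, at -1.37 ± 0.24 (adjusted p = 0.0307), and the other 8 called genes lost theirs. PSMD11, PSMD4 and PSMD13 then gave 0.0084 ± 0.24, 0.012 ± 0.24 and 0.049 ± 0.29. PSMC1, PSME3IP1, PSMF1 and PSMG2 gave 0.14 to 0.45, and PSMD2 gave 0.79 ± 0.27, more than its 0.58 in the main fit. The median change of the 19S genes was then 0.082.

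**Figure D3:**
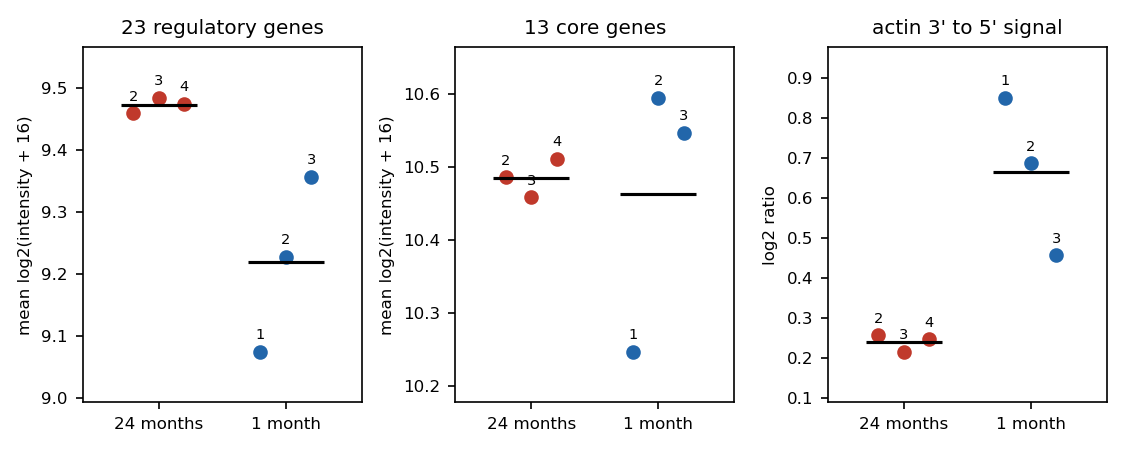
Mean log2(intensity + 16) of the 23 regulatory genes and of the 13 core genes, and the log2 ratio of 3' to 5' actin signal, with a point for each pool (numbered by replicate; 24 months left, 1 month right) and the group mean as a line. The regulatory means and the actin ratios of the ages do not overlap (axes do not start at 0), and the core means do.

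Without 24-month replicate 2, 3 or 4, 0 of the 37 genes passed by limma, and the probe sets past the threshold over the whole table numbered 689, 586 and 526, against 2513 with all arrays. For the 8 rises the changes without 1 such array stayed at 0.47 to 1.02. Without 1-month replicate 1, 2 or 3 the rises numbered 3, 3 and 9 and the falls 3, 0 and 1. With quantile normalization PSMD2, PSMF1 and PSMG1 kept their calls. In the second deposited table PSMD13 was the rise (1.41 ± 0.27, adjusted p = 0.0188) and PSMB2, at -0.013 in the main table, the fall (-0.91 ± 0.17, adjusted p = 0.0175), both with quantile normalization. The sign of all 9 called genes was the same in each of the 18 alternatives, except for PSMG2 in the second table with and without normalization, but with the actin covariate PSMD11, PSMD4 and PSMD13 were near 0. The difference between the median changes of the 19S and core genes kept its sign in all 18, at 0.27 to 0.51, against 0.34 in the main fit. Some of these settings could not alter it. The other filters and the trended robust variance leave each change, and so each sign, as it is. Median centring shifts all changes alike, and the difference was 0.34 in each of these fits.

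Partners of the proteasome outside the naming rule came from a list of 32 symbols for shuttle factors, ubiquitin genes, bound enzymes and regulators, of which 19 genes were tested. Of these 6 rose and 0 fell by limma (31.6%, against 19% of all tested probe sets in either direction and 14% as rises), with a median change of 0.49. VCP, the unfoldase that extracts tagged proteins and hands them to the cap, read 1159, 1304 and 1074 in the 24-month pools, against 638, 539 and 665 in the 1-month pools. It rose by 0.92 ± 0.14 (adjusted p = 0.00881), and without 24-month replicate 3 it narrowly missed the threshold (adjusted p = 0.0511). UBQLN2, a shuttle factor that carries tagged proteins, rose by 0.99 ± 0.16 (adjusted p = 0.00982). UBA1, the enzyme that activates ubiquitin, rose by 0.66 ± 0.12, and TXNL1, a thioredoxin-like protein bound to the cap, by 1.11 ± 0.26. The other rises, named after their values were seen, were the cap-bound ligase UBE3C (0.88 ± 0.22) and the cap-bound deubiquitinase USP14 (0.49 ± 0.13). Each of these other 5 calls was lost without at least 1 array, and all 6 were lost with the actin covariate. With it VCP, UBQLN2 and UBA1 still gave 0.81, 0.86 and 0.53, while TXNL1 gave 0.40, USP14 0.32 and UBE3C -0.026.

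NFE2L1, the transcription factor known to drive proteasome genes when the particle is impaired, was also singled out after its values were seen. It read 1877, 1856 and 1873 in the 24-month pools, against 832, 740.2 and 1583 in the 1-month pools. All older pools lay above the young ones, and the change of 0.90 ± 0.28 did not pass (adjusted p = 0.0632). Without 1-month replicate 3, its highest young pool, NFE2L1 passed (1.24, adjusted p = 0.00247). Leaving out the young pool nearest to the older ones enlarges the change by construction, so this pass carries no weight of its own. In that fit the calls over the whole table went from 2513 to 3476. The same limit holds for the passes of PSMD10, PSMA5 and PSMB4 with 1 array left out. With the actin ratio as a covariate its change turned negative, as given below. The related factor NFE2L2 gave 0.06 ± 0.24.

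The inducible catalytic subunits PSMB8, PSMB9 and PSMB10, which replace those of the standard core in immune cells and after interferon, did not pass. PSMB8 gave 0.66 ± 0.28 (adjusted p = 0.139), PSMB9 0.26 ± 0.12 (adjusted p = 0.181) and PSMB10 -0.13 ± 0.12 (adjusted p = 0.471). For scale, among 25 ubiquitin-conjugating enzymes of the UBE2 family 2 rose and 0 fell by limma. Among 42 ribosomal proteins of the large subunit 0 rose and 27 fell, with a median of -0.55. Over all tested probe sets 14% rose and 4.99% fell by limma.

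In bulk muscle, fewer cells of a type and less RNA per cell cannot be told apart. The summed intensity of 8 myofibre markers was 68830.3 to 70478 in the 24-month pools and 50021 to 51619 in the 1-month pools, and 4 of the 8 rose. The 6 fibroblast markers summed to 5593 to 7314 in the 24-month pools and 6717 to 23751 in the 1-month pools, with 0 changes called by limma among 6 tested. For 5 endothelial markers the sums were 552 to 578 in the 24-month pools and 756 to 1033 in the 1-month pools, with 2 falls among 3 tested. For 7 leukocyte markers they were 658 to 718 in the 24-month pools and 705 to 1209 in the 1-month pools, with 2 falls among 6 tested. Adipocyte markers (4 on the array) summed to 728 to 1046 in the 24-month pools and 185 to 2501 in the 1-month pools, with 0 changes called among 2 tested. The 5 erythroid markers summed to 211 to 244 in the 24-month pools and 409 to 4383 in the 1-month pools, with 1 fall among 2 tested. Beside these counts, 14% of all tested probe sets rose and 4.99% fell by limma. The markers KDR and VWF (endothelial), CSF1R and S100A9 (leukocyte), LEP (adipocyte) and ALAS2 and SLC4A1 (erythroid) were not called present on any array. The part of these differences in the changes of the proteasome genes was not tested.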

How the data were processed

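Ages were taken from the label of each array, and table columns were matched to the arrays through their titles. One table, whose name refers to the program dChip, is the main one here. It holds linear intensity values as deposited by the authors, with a deposited detection call per probe set. For the 1-month arrays it also holds a deposited detection p-value (not used here). The array medians were nearly equal, at 6.42 to 6.45 on the log2 scale. The core and regulatory means lay higher, at 10.49 and 9.47 at 24 months, and equal medians do not show a common level there. Quantile normalization moved the core median from 0.021 to -0.12. Present calls ran from 54.8% to 56.4% of probe sets at 24 months and from 48.9% to 52.5% at 1 month. A second deposited table has linear intensity values too, of unknown scale, with medians of 15.4 to 21.2 per array. The version, background method and normalization were not given in the sources used here. Symbols came from the platform annotation, and 0 changed when matched by gene identifier to RefSeq names (ARS-UCD2.0).

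From these values log2(intensity + 16) was computed, with no further normalization because the array medians lay within 0.0308 of each other, below a limit of 0.2. The 13204 probe sets called present on at least 3 arrays, controls left out, were fitted with limma 3.58.1 (lmFit and eBayes) in R 4.3.3, with two-sided p-values Benjamini-Hochberg adjusted over all of them and a threshold of 0.05. The fit was tested on simulated data. Nothing in the labels says how the bulls of different pools are related, so p-values measure the spread between pools. The number of arrays limits the precision, since no read depth exists. The members and lists were chosen with earlier results of these data known. Values on every array are given for called genes, the smallest p of each subgroup and the smallest change; the other genes given with values were chosen after these were seen. The partner genes named first have the 4 smallest p of that list. Alternatives were quantile normalization, median centring, offsets of 1 and 50, other filters, the second table, a trended robust variance, the actin ratio, the replicate number as a block, and leaving out each array.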

Additional observations from a re-analysis of the deposited data

How the results depend on the processing

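The count of rises among the 37 genes, 8 in the main fit, was 2 with quantile normalization, 1 in the second table with or without it, 1 with the actin ratio as covariate and 0 to 9 with 1 array left out. The count of falls, 1 in the main fit, was 3 with the actin ratio and 0 to 3 with 1 array left out. The core median of 0.021 was -0.12 with quantile normalization, -0.083 and -0.24 in the second table with and without it, -0.20 with the actin ratio and -0.096 to 0.12 with 1 array left out. The regulatory median of 0.32 was 0.17, 0.094, 0.0084 and 0.049 under the first 4 of these settings and 0.30 to 0.38 with 1 array left out. The 2513 calls over all probe sets became 1641 and 1169 in the second table with and without quantile normalization, 996 with the actin ratio, and 526 to 3476 with 1 array left out. Rises made up 73.8% of all calls in the main fit, against 61.9% and 56.3% in the second table. Without normalization the median of all tested probe sets was -0.074 in the second table, against 0.064 in the main one. The causes were not tested.

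The ages share replicate numbers 2 and 3, but the pools hold different bulls, so the numbers do not pair animals. The deviations of same-numbered arrays correlated at -0.18 and 0.039. Deviations were taken from the mean of each age, and so few pairs cannot show whether the numbers mark shared processing. With the replicate block 0 genes rose and 0 fell by limma, the core median was -0.088, and 129 probe sets passed over the whole table.

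Directions of single genes turned as follows. PSMG2 gave -0.91 and -1.03 in the second table with and without quantile normalization. In the same pair of settings PSMC3 gave -0.034 and -0.16, PSMC6 -0.0066 and -0.11, PSMD1 -0.10 and -0.20, and PSMD14 -0.11 and -0.25. PSMD14 also gave -0.13 with quantile normalization, -0.0013 with median centring, -0.061 with the actin ratio, -0.21 with the replicate block and -0.12 to 0.19 with 1 array left out. With the actin ratio PSMB3 gave -0.070, PSME4 -0.66, UBE3C -0.026 and NFE2L1 -0.13. PSMC2 gave -0.025 on its second brightest probe set. PSME1 gave -0.023 with quantile normalization and -0.16 to 0.44 with 1 array left out, and PSMB2 -0.096 to 0.13 with 1 array left out.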

Other observations

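The young pools varied more among themselves than the older ones for most proteasome genes: the log2 SD was larger at 1 month for 32 of the 37 genes. The median SD of these genes was 0.0999 at 24 months and 0.253 at 1 month, close to the medians over all tested probe sets of 0.117 at 24 months and 0.259 at 1 month. Among the 23 regulatory genes 1-month replicate 3 was the highest young pool for 13, and 1-month replicate 1 the lowest for 14.

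PSMB2, a core beta subunit, and PSMG2, an assembly factor, differed most plainly between the deposited tables, and both were singled out after their values were seen. In the main table PSMB2 read 717, 675 and 684 in the 24-month pools and 620.5, 645 and 849 in the 1-month pools, while in the second table it read 471, 319 and 436 in the 24-month pools and 723, 875 and 903 in the 1-month pools. Another PSMB2 probe set gave -0.0061 ± 0.19 in the main table. PSMG2 read 628, 383 and 517 in the 24-month pools of the second table and 799.7, 1517 and 914 in its 1-month pools, the opposite order to the main table. Both tables come from the same arrays, and the cause of the difference was not tested.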
